A study of Mus musculus with 2 samples.

Results

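Tubulin is the building block of microtubules, and 9 genes for its main brain isotypes are described here in total RNA of the left cerebral cortex of the mouse. The members are 3 alpha tubulin genes, Tuba1a, Tuba1b and Tuba4a, and 6 beta tubulin genes, Tubb2a, Tubb2b, Tubb3, Tubb4a, Tubb4b and Tubb5. They were taken by gene symbol from 55536 annotated genes, and all 9 were found in both libraries. Their 23 annotated transcripts were followed in 2 transcript tables made by different quantifiers, out of 141862 annotated transcripts.

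The tissue came from female mice of strain B6CASTF1/J, a first-generation cross of C57BL/6J with CAST/EiJ, aged 36 days, and no treatment is named. The reference used for counting is that of C57BL/6J, and a loss of CAST/EiJ reads was not tested. There were 2 libraries, 1 for each of 2 animals that share 1 donor record, and both belong to 1 group, named replicate 2 and replicate 1 here as in the labels. With 1 group there is no contrast of conditions, and no p-value was computed. Differences between the mice are given with counting intervals, which cover counting error only. They leave out the spread among animals and the division of shared reads among genes. The tables also carry no molecular identifiers. Replicate 2 held 35188800 and replicate 1 held 29417200 expected counts, and the 9 tubulin genes took 0.296% of them in replicate 2 and 0.253% in replicate 1. Markers of neurons (5 of 5 genes), oligodendrocytes (6 of 6), astrocytes (5 of 5), microglia (4 of 4) and endothelium (4 of 4) were expressed at 1 TPM or more (TPM is a level corrected for transcript length and library depth) in both libraries, as were 4 of 5 markers of immature neurons and 2 of 4 of choroid plexus and ependyma, against 0 of 4 markers of dividing cells. At that level 12754 of 22015 nuclear protein-coding genes were expressed. In bulk tissue, fewer cells of a type and less RNA per cell cannot be told apart.

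Microtubules are hollow polymers of heterodimers, each made of an alpha and a beta tubulin. In neurons they fill axons and dendrites, carry motor-driven transport and are continually regrown. The isotypes are alike over most of their length and differ most at the C-terminal tail, which faces outwards and is where enzymes remove or add tyrosine, glutamate and glycine.

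The ends of the coding sequences show that difference, and those of Tuba4a and the 6 beta genes are printed because the tail is what tells most isotypes apart. Each line gives the last 20 codons and the stop codon, 5′ to 3′, of the GENCODE M21 transcript (build mm10). Capitals mark the last codon before the stop.
Tuba4a: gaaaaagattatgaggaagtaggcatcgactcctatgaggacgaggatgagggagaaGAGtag
Tubb2a: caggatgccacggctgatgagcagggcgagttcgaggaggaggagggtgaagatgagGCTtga
Tubb2b: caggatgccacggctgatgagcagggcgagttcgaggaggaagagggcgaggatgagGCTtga
Tubb3: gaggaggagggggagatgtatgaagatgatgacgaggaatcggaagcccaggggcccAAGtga
Tubb4a: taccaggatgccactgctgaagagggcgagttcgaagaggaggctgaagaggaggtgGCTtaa
Tubb4b: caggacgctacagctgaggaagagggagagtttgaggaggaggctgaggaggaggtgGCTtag
Tubb5: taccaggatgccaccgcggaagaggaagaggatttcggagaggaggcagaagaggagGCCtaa

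Tuba4a ends in a glutamate codon, so its product lacks a gene-encoded terminal tyrosine, the residue that the tubulin tyrosine cycle removes and restores. Tubb3, the class III beta tubulin of neurons, is the only one of those printed that ends in a lysine codon.

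The coding sequences fell into a few close pairs. Tuba1a and Tuba1b were 98.3% identical over the coding sequence, and Tuba4a was 84.7% identical to Tuba1a. Tubb2a and Tubb2b were 96.5% identical over the coding sequence and 95.2% over the end, where 3 of 63 bases differ. In the next lines capitals mark those 3 bases.
Tubb2a: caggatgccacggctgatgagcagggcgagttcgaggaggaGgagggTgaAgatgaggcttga
Tubb2b: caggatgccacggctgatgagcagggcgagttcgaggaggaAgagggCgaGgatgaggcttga

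The other pairs of beta genes stood further apart. Over all 15 pairs of beta genes, Tubb2a with Tubb2b included, the median identity was 71.2% at the printed end and 84.1% before it. The end was less alike than the rest in 15 of 15 beta pairs, and in 2 of 3 alpha pairs. The end of Tubb3 matched no other beta gene beyond 50%. Alpha and beta genes had a median coding identity of 54.4% over 18 pairs.

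The first codons are printed because tubulin messenger RNA is destroyed during translation when free tubulin is in excess, through recognition of the first residues of the new chain by TTC5. The lines give the first 4 codons, with the last of them in capitals.
Tuba1a: atgcgtgagTGC
Tuba1b: atgcgtgagTGC
Tuba4a: atgcgcgagTGC
Tubb2a: atgcgcgagATC
Tubb2b: atgcgagagATC
Tubb3: atgagggagATC
Tubb4a: atgcgggaaATC
Tubb4b: atgagggagATC
Tubb5: atgagggaaATC

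All 3 alpha genes share the capital codon, and all 6 beta genes share another. The beta genes spell the 4 codons in 5 ways and the alpha genes in 2.

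The genes lie on chromosomes 1, 2, 8, 13, 15 and 17, with coordinates from GENCODE M21 on mm10. Tuba1a (ENSMUSG00000072235.6) lies at chr15:98949837-98953703 beside Tuba1b (ENSMUSG00000023004.8) at chr15:98931425-98934565, both on the minus strand. Tubb2a (ENSMUSG00000058672.7) lies at chr13:34074274-34078007 near Tubb2b (ENSMUSG00000045136.6) at chr13:34126748-34130466, also on the minus strand. The closest pairs in sequence are thus neighbours on the chromosome. Tubb5 (ENSMUSG00000001525.10) at chr17:35833921-35838306 and Tubb4a (ENSMUSG00000062591.5) at chr17:57080066-57087782 share a chromosome but lie apart. Tuba4a (ENSMUSG00000026202.13) lies at chr1:75214228-75219865, Tubb4b (ENSMUSG00000036752.4) at chr2:25222160-25224702 and Tubb3 (ENSMUSG00000062380.4) at chr8:123411424-123422015. The transcript with the highest level of each gene had 4 exons in all 9 genes.

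All 9 genes were abundant messages. Levels are the authors' TPM of the gene table unless the second table is named. TPM is per length and can be set side by side between genes. Tuba1a ranked 70 and Tubb2b 1423 among 22015 nuclear protein-coding genes by mean TPM, and the median of the 12754 expressed ones was 15.3 TPM. The 9 genes together made 2267 TPM in replicate 2 and 2181 TPM in replicate 1.

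Tuba1a, the main alpha tubulin of the developing brain, was the highest, with 449 TPM in replicate 2 and 401 TPM in replicate 1. Tuba4a, the alpha tubulin without an encoded terminal tyrosine, had 273 TPM in replicate 2 and 284 TPM in replicate 1. Tuba1b, an alpha tubulin of most tissues, had 244 TPM in replicate 2 and 241 TPM in replicate 1. The 3 alpha genes thus kept 1 order in both mice, and their values did not overlap.

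Among the beta genes, Tubb2a, a class II beta tubulin abundant in brain, had 386 TPM in replicate 2 and 339 TPM in replicate 1. Tubb4a, the class IVa beta tubulin of brain and myelinating cells, had 303 TPM in replicate 2 and 325 TPM in replicate 1. These 2 led the beta genes in both mice, and Tubb2a was ahead of Tubb4a by more in replicate 2 than in replicate 1. Tubb5, the class I beta tubulin of most cells, had 194 TPM in replicate 2 and 190 TPM in replicate 1. Tubb3 had 186 TPM in replicate 2 and 171 TPM in replicate 1. Tubb5 stood above Tubb3 in both mice, but the gap of their means was 13.7 TPM against a summed SD of 13.03 TPM. Tubb4b, the class IVb beta tubulin known from cilia and many tissues, had 158 TPM in replicate 2 and 163 TPM in replicate 1. Tubb2b, a class II beta tubulin whose human variants cause malformed cortex, had 74.1 TPM in replicate 2 and 66.1 TPM in replicate 1. It was the lowest of the 9 in both mice.

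**Figure D1:**
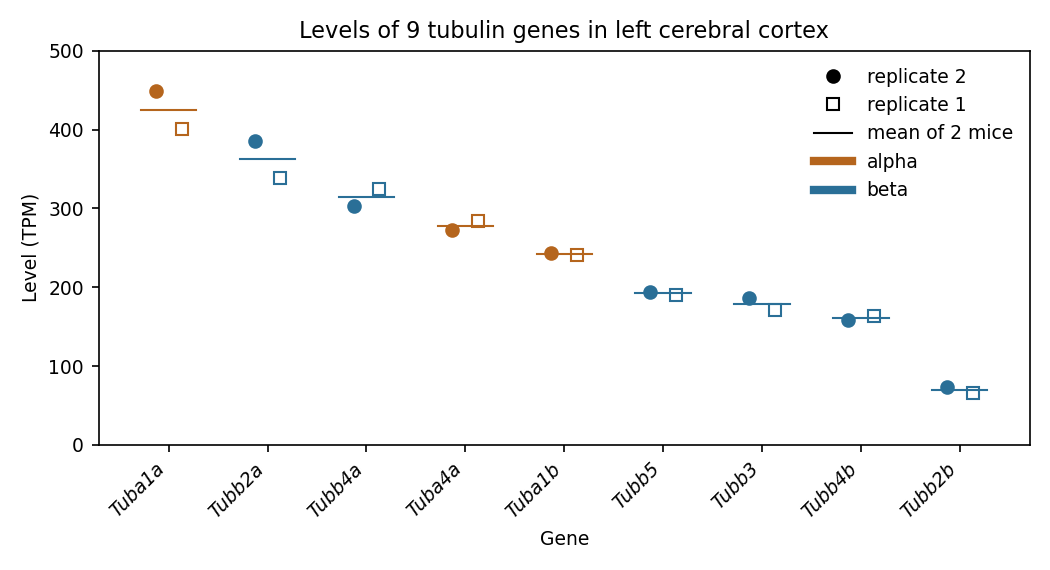
Level in TPM of the gene table (vertical axis) of each of 9 tubulin genes, with a filled circle for replicate 2, an open square for replicate 1 and a line at the mean of the 2 mice. Tuba1a was highest and Tubb2b lowest in both mice, and replicate 2 lay above replicate 1 for Tuba1a, Tubb2a, Tuba1b, Tubb5, Tubb3 and Tubb2b.

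The order by mean in the gene table was Tuba1a, Tubb2a, Tubb4a, Tuba4a, Tuba1b, Tubb5, Tubb3, Tubb4b and Tubb2b, and both mice gave it. Neighbours were called separate when the gap of their means exceeded the sum of their SDs over the 2 mice. By this rule Tuba1a and Tubb2a were not separate, with a gap of 62.8 TPM against summed SDs of 67.1 TPM. The rule does not pair genes within a mouse, so a shift shared by both genes widens the SDs. Within each mouse, Tuba1a over Tubb2a stood at 449 against 386 TPM in replicate 2 and 401 against 339 TPM in replicate 1. Tubb2a and Tubb4a were not separate either, with 48.2 TPM against 48.9 TPM. The other 6 neighbouring pairs were separate, of which Tubb4b and Tubb2b had the widest gap, 90.5 TPM. This order did not hold in the second transcript table, where Tuba4a was the highest of the 9. It had 715 TPM in replicate 2 and 615 TPM in replicate 1 there, against 683 and 546 TPM for Tuba1a. Tubb4a had 493 and 472 TPM there.

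The 9 genes made up nearly all alpha and beta tubulin message. They held 96.3% ± 0.145 of the TPM of 8 alpha tubulin genes and 99.9% ± 0.0223 of the TPM of 8 beta tubulin genes (SD, n = 2). Tuba1a took 43.3% ± 2.23 of the alpha total, Tuba4a 28.3% ± 1.59 and Tuba1b 24.7% ± 0.497. Of the beta total, Tubb2a took 28.3% ± 1.88 and Tubb4a 24.6% ± 1.86, a difference within these SDs. Tubb5 took 15.03% ± 0.205, Tubb3 13.9% ± 0.467, Tubb4b 12.6% ± 0.605 and Tubb2b 5.48% ± 0.300. Tubb3, often used as a neuronal marker, came after Tubb2a, Tubb4a and Tubb5 in this tissue.

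Within pairs of closely named genes, 1 member led in both mice. Tubb2a exceeded Tubb2b by 5.21 times in replicate 2 and 5.13 times in replicate 1. Tubb4a exceeded Tubb4b by 1.92 times in replicate 2 and 1.99 times in replicate 1. Tuba1a exceeded Tuba1b by 1.84 times in replicate 2 and 1.66 times in replicate 1. In the second transcript table Tuba1a over Tuba1b was lower, 1.38 in replicate 2 and 1.26 in replicate 1. Tubb4a over Tubb4b was higher there, 2.17 in replicate 2 and 2.25 in replicate 1. The neuronal Tubb3 was exceeded by Tubb4a by 1.63 times in replicate 2 and 1.903 times in replicate 1.

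Alpha tubulin message was lower than beta tubulin message. The 8 alpha genes summed to 1001 TPM in replicate 2 and 963 TPM in replicate 1, and the 8 beta genes to 1302 TPM in replicate 2 and 1255 TPM in replicate 1. The ratio of alpha to beta was 0.768 ± 0.00127 (SD, n = 2). The second quantifier gave 0.922 ± 0.0243. Adding the processed pseudogenes described below to each total, a choice made after seeing the data, gave 0.938 ± 0.000438 in the gene table and 0.975 ± 0.0197 in the second table. The ratio stayed below 1 in each of these 4 versions.

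**Figure D2:**
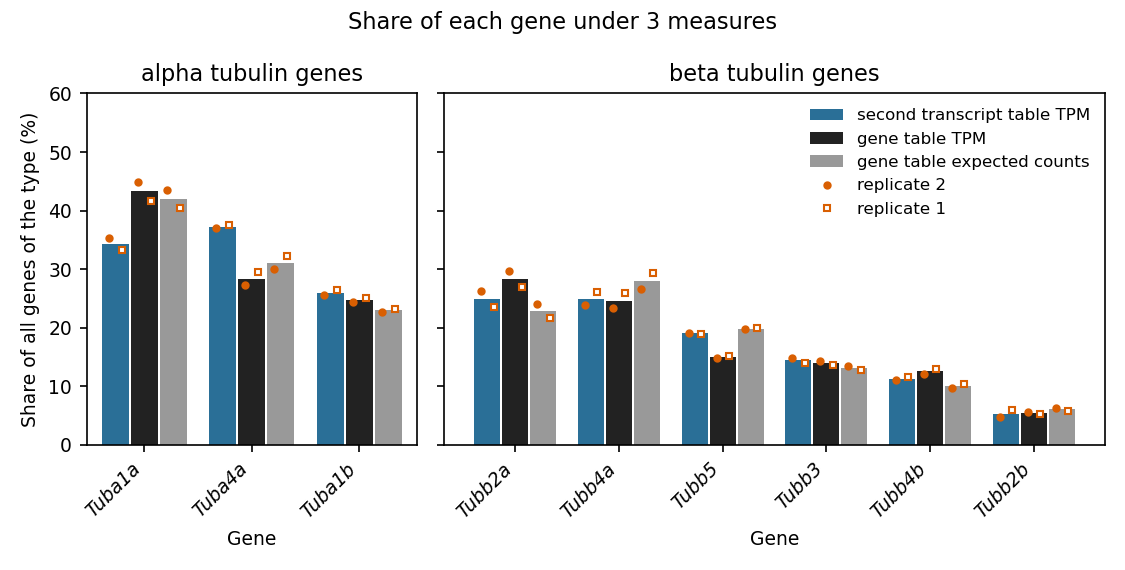
Share of the summed level of 8 alpha tubulin genes (left) and 8 beta tubulin genes (right) taken by each gene, in percent, by the second quantifier's TPM, the gene table's TPM and the gene table's expected counts, as bars at the mean of 2 mice with a circle for replicate 2 and a square for replicate 1. Tuba1a led the alpha genes in the gene table, while Tuba4a led them by TPM in the second table at 37.2% on average.

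The quantifier changed the order of the alpha genes in TPM but not in reads. In the second table Tuba1a had 18722 estimated reads against 14447 for Tuba4a in replicate 2. In replicate 1 it had 12364 against 11001. In the second transcript table Tuba4a took 37.0% of alpha tubulin TPM in replicate 2 and 37.5% in replicate 1, and Tuba1a took 35.3% in replicate 2 and 33.3% in replicate 1. Tuba1a over Tuba4a was 0.955 in replicate 2 and 0.888 in replicate 1 in the second table, against 1.65 in replicate 2 and 1.42 in replicate 1 in the gene table. The order of the 6 beta genes was Tubb2a, Tubb4a, Tubb5, Tubb3, Tubb4b and Tubb2b in the gene table, and the second table had Tubb2a and Tubb4a at 24.9% ± 1.96 and 24.99% ± 1.51 of the beta total (SD, n = 2). When both tables were scaled to the same total over nuclear protein-coding genes, the second over the first averaged 0.797 for Tubb2a at the lowest and 1.43 for Tuba4a at the highest. None of the 9 members differed by 1.5 times or more, against 5.10% of 12718 expressed nuclear protein-coding genes.

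At 100 bases, sequence shared with another gene concerned 5 of the 9 genes. A window of 100 bases of the leading transcript was called shared when the same 100 bases occur in a transcript of another gene. Tuba1b shared 69.5% of its windows and Tuba1a 65.1%, each with 11 other genes. Tubb2a shared 36.9% and Tubb2b 27.7%, mainly with each other, and Tubb4b shared 29.2%. Tuba4a, Tubb3, Tubb4a and Tubb5 shared 0 windows of this length. With windows of 50 bases, 8 of the 9 genes shared some, and Tubb3 shared none. Tubb4b then shared 50.9% of its windows, Tuba4a 1.52%, Tubb4a 0.184% and Tubb5 0.115%. Fractional expected counts, the sign of a divided read, occurred in 6 of the 9 genes (66.7%), against 14.9% of expressed nuclear protein-coding genes. The 3 with whole counts, within 0.005 in both libraries, were Tuba4a, Tubb3 and Tubb5.

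The first quantifier gives a posterior SD for each expected count, a measure of its own uncertainty and not of how many reads were divided. Tuba1b had 10106 expected counts in replicate 2 and 7371 in replicate 1, with posterior SDs of 93.6 counts in replicate 2 and 80.9 counts in replicate 1. Tubb2b had 3864 expected counts in replicate 2 and 2573 in replicate 1, with posterior SDs of 37.2 counts in replicate 2 and 29.2 counts in replicate 1. These were the largest relative SDs of the 9, up to 1.13% of the count. Tubb4a, with 16327 expected counts in replicate 2 and 12944 in replicate 1, had posterior SDs of 0.50 and 0.48 counts in these libraries.

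The 2 quantifiers divided the Tuba1 reads differently. Tuba1b had 12963 estimated reads in replicate 2 and 9290 in replicate 1 in the second table, which was 1.28 and 1.26 times its expected counts in the gene table. Tuba1a had 18722 estimated reads in replicate 2 and 12364 in replicate 1 in the second table, against 19351 and 12789 expected counts in the gene table. The second over the first was 0.967 for Tuba1a in both libraries, so the 2 tables were nearer for Tuba1a than for Tuba1b.

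Processed pseudogenes are intronless copies of a message inserted elsewhere in the genome. The windows led to 12 processed pseudogenes that share sequence with the 9 genes, and those with no tubulin name were picked after their values were seen. Gm14150, on chromosome 2 and closest to Tuba1b, had 75.2 estimated reads in replicate 2 and 22.0 in replicate 1 in the second table, against 4023 and 2773 expected counts in the gene table. In the gene table it stood above Tubb2b, at 127 TPM in replicate 2 and 118 TPM in replicate 1. Gm3226, on chromosome 13, had 2216 estimated reads in replicate 2 and 1793 in replicate 1 in the second table, against 2427 and 1954 expected counts in the gene table. It shared 431 windows of 100 bases with Tuba1a and 422 with Tuba1b. At 50 bases it shared 716 with Tuba1a and 802 with Tuba1b. Gm14150 thus held reads in 1 table and almost none in the other, while Gm3226 held them in both. Gm6682, on chromosome 12, had 245 estimated reads in replicate 2 and 184 in replicate 1 in the second table, against 775 and 498 expected counts in the gene table.

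In the gene table the alpha pseudogenes together had expected counts equal to 17.0% of those of the 3 alpha members in replicate 2 and 17.5% in replicate 1. Of these members Tuba4a shared 0 windows of 100 bases. The second table gave the alpha pseudogenes 2638 reads in replicate 2 and 2108 in replicate 1, against 7298 and 5308 in the gene table. The beta pseudogenes reached 0.601% of the beta members in replicate 2 and 0.676% in replicate 1 in the gene table. They had 658 and 495 reads in the second table, against 369 and 298 in the gene table. Tubb4b-ps1 was the highest of the beta ones, with 9.73 TPM in replicate 2 and 10.8 TPM in replicate 1. Tubb2a-ps2, which shares windows with Tubb2a and Tubb2b, had 176 estimated reads in replicate 2 and 121 in replicate 1 in the second table, against 24.98 and 17.6 expected counts in the gene table.

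**Figure D3:**
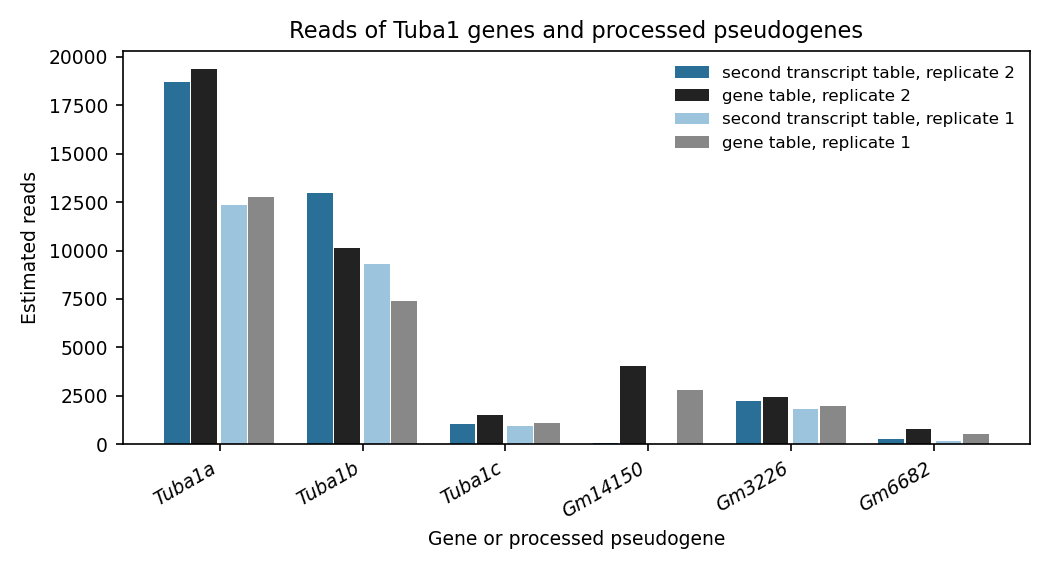
Estimated reads (vertical axis) of Tuba1a, Tuba1b, Tuba1c and the 3 processed pseudogenes with the most reads in the gene table. Bars show the second transcript table and the gene table in replicate 2 and then in replicate 1. Gm14150 had 4023 reads in the gene table of replicate 2 and 75.2 in the second table, while Tuba1b had 10106 in the gene table and 12963 in the second table.

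Each of the 9 genes had the same leading transcript by both quantifiers, but the leading share differed most for Tuba4a and Tubb5, and for Tubb2b in 1 library. Tuba4a has 8 annotated transcripts. Tuba4a-201 took 42.1% of the gene's TPM in replicate 2 and 45.8% in replicate 1 in the second table, against 92.0% and 89.9% in the first table. Of the gene's estimated reads in the second table it took 68.1% in replicate 2 and 69.0% in replicate 1. Tuba4a-203, a shorter transcript with an incomplete coding sequence, took 25.5% in replicate 2 and 29.1% in replicate 1 in the second table, against 0.433% and 0.892% in the first. Tuba4a-206, also short and incomplete, took 22.3% in replicate 2 and 23.9% in replicate 1 in the second table, against 0.668% and 4.51% in the first. The second table thus spread Tuba4a over 3 transcripts where the first gave nearly all to 1. The first table's expected count for Tuba4a-206 was 50.9 in replicate 2 and 265 in replicate 1, with posterior SDs of 90.0 and 104, so its level there is poorly fixed.

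Tubb5 has 4 annotated transcripts. Tubb5-201, the full coding transcript, took 62.4% of TPM in replicate 2 and 62.7% in replicate 1 in the second table, against 95.9% and 95.3% in the first. Tubb5-204, annotated as a retained intron with no coding sequence, took 37.1% in replicate 2 and 36.9% in replicate 1 in the second table, against 3.51% and 4.01% in the first. Of the gene's estimated reads in the second table, Tubb5-204 took 14.2% in replicate 2 and 14.0% in replicate 1, and Tubb5-201 took 85.6% and 85.9%. In TPM, the share of the full coding transcript thus differed between the quantifiers by more than between the mice. Tubb2b-202, a short transcript with no coding sequence, had 0.670 TPM in replicate 2 and 33.1 TPM in replicate 1 in the second table, from 1.55 and 63.1 estimated reads. The leading Tubb2b-201 accordingly took 99.3% in replicate 2 and 68.9% in replicate 1 in the second table, against 98.8% and 100% in the first. In that table Tubb2a exceeded Tubb2b by 5.62 times in replicate 2 and by 4.01 times in replicate 1, where the short transcript is counted in. Tuba1a, Tubb2a and Tubb4a have 1 annotated transcript each, and in Tuba1b, Tubb3 and Tubb4b the leading transcript took at least 98.6% in every library of both tables.

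Between the mice, the 9 genes were somewhat higher in replicate 2 once the libraries were scaled by TMM (trimmed mean of M-values, which sets most genes even), and lower in replicate 2 under spike-in scaling. On the log2 scale, replicate 2 over replicate 1, Tubb2a stood at 0.41 (95% counting interval 0.37 to 0.45), Tuba1a 0.39 (0.35 to 0.42), Tubb2b 0.37 (0.30 to 0.45) and Tubb3 0.35 (0.30 to 0.39). Tubb5 was at 0.26, Tuba1b at 0.24, Tuba4a and Tubb4b at 0.18, and Tubb4a lowest at 0.12 (0.090 to 0.16). The ratio was above 0 for 9 of 9 genes, against 55.1% of the 12613 genes that averaged 100 counts or more. None of the 9 reached a 2-fold difference, against 0.745% of those genes. The median was 0.26 for the 9 genes and 0.023 for all genes tested. Tubb2a lay above 97.2% of the tested genes and Tubb4a above 71.6%.

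The sign of these ratios depends on the scaling. When the libraries were scaled by the ERCC spike-ins, RNAs of known amount added to each sample, all 9 genes were below 0, between -0.035 for Tubb2a and -0.32 for Tubb4a, and the median of all genes tested moved to -0.42. A change of scaling moves all genes nearly alike, so the distance of the 9 genes' median above that of all genes, 0.23, is fixed by construction. On TPM as deposited, where 7SL RNA took 30.1% of the total in replicate 2 and 24.3% in replicate 1, the ratio was below 0 for Tubb4a, Tuba4a and Tubb4b.

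Markers of 3 cell types were set beside these TMM ratios. Of the 6 oligodendrocyte markers 1 had a ratio above 0, with a median of -0.11 and summed levels of 1606 TPM in replicate 2 and 2130 TPM in replicate 1. The 5 neuron markers had a median ratio of 0.077 and summed levels of 3081 TPM in replicate 2 and 3437 TPM in replicate 1, with 3 of 5 above 0. The 5 astrocyte markers were all above 0, with a median ratio of 0.16 and summed levels of 249 TPM in replicate 2 and 266 TPM in replicate 1. For neurons and astrocytes the median ratio and the summed TPM point in opposite directions. The 2 measures are scaled differently, and TPM is lowered by the larger 7SL share of replicate 2. None of the markers in these 3 lists was at 0, and their part in the tubulin ratios was not tested. Of all genes tested, 55.1% were above 0. In the other lists, of markers that averaged 100 counts or more, 2 of 4 for microglia and 2 of 4 for endothelium were above 0. The same held for 3 of 4 for immature neurons and 0 of 2 for choroid plexus and ependyma.

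**Figure D4:**
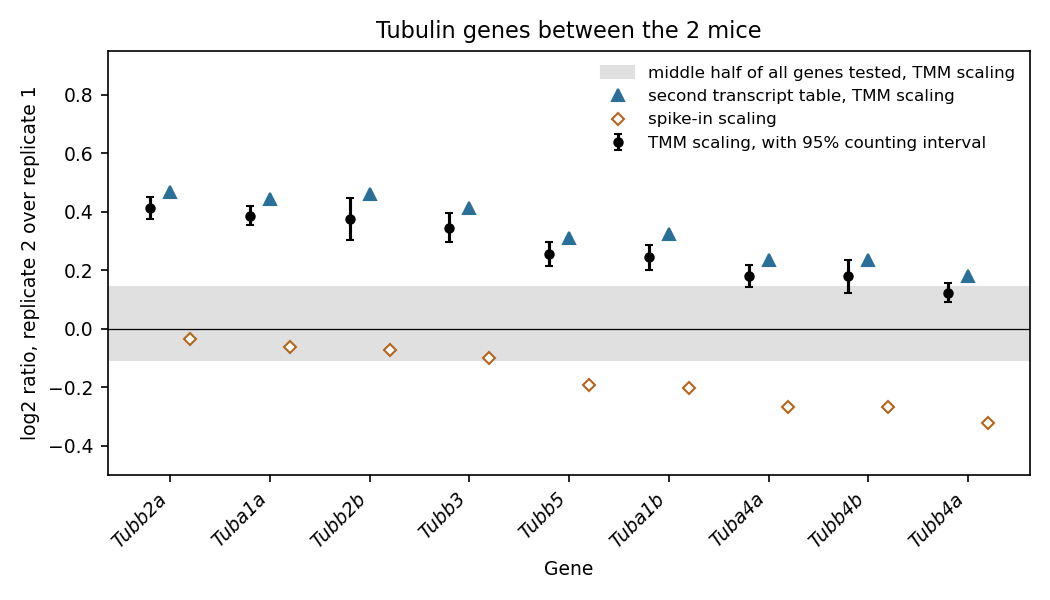
Log2 ratio of replicate 2 over replicate 1 (vertical axis) for each of 9 tubulin genes, with black points and 95% counting intervals for TMM scaling, triangles for the second transcript table, open diamonds for spike-in scaling, and a grey band for the interquartile range of all genes tested under TMM scaling. All 9 lay above 0 under TMM scaling and below 0 under spike-in scaling, in the same order by construction of the 2 scalings.

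Other tubulin genes were far lower. Tuba1c, an alpha tubulin close to Tuba1b, had 31.8 TPM in replicate 2 and 31.3 TPM in replicate 1, and shared windows with both Tuba1a and Tuba1b. Tubg1 and Tubg2 encode gamma tubulin, which starts new microtubules. Tubg2 had 25.3 TPM in replicate 2 and 23.7 TPM in replicate 1, and Tubg1 had 19.96 TPM in replicate 2 and 22.2 TPM in replicate 1. Tubg2 was above Tubg1 in both mice in this table, but in replicate 1 of the second table Tubg2 had 32.7 TPM and Tubg1 33.7 TPM.

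Tuba8 had 3.89 TPM in replicate 2 and 4.99 TPM in replicate 1. Tubd1 and Tube1, the delta and epsilon tubulins of centrioles, had 2.15 and 1.15 TPM in replicate 2 and 3.00 and 1.61 TPM in replicate 1. Tubb6 had 36 expected counts in replicate 2 and 16 in replicate 1, below 1 TPM in both. Tubb1, the beta tubulin of platelets, had 3 counts in replicate 2 and 0 in replicate 1, and Tuba3a, Tuba3b and Tubal3 had 0 counts in both libraries. Of these 11 other tubulin genes 6 were expressed, beside 12754 of 22015 nuclear protein-coding genes.

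The genes that fold tubulin were all expressed. New tubulin chains pass through prefoldin and the chaperonin CCT, and the cofactors Tbca to Tbce then join alpha to beta. All 21 folding genes reached 1 TPM in both libraries, beside 12754 of 22015 nuclear protein-coding genes. Their median was 47.9 TPM. Pfdn5, a prefoldin subunit, was highest with 173 TPM in replicate 2 and 180 TPM in replicate 1. The chaperonin subunits Cct7 and Tcp1 followed at means of 91.4 and 85.0 TPM, and the prefoldin subunit Pfdn4 was lowest at 13.2 TPM. Their median log2 ratio between the mice was 0.11 under TMM scaling, where 20 of 21 were above 0, beside 55.1% of all genes tested. Under spike-in scaling 0 of 21 were above 0, beside 2.31% of all genes tested. Of the 3 autoregulation genes, Ttc5 averaged 25.9 TPM, Scaper 12.3 TPM and Cnot11 10.7 TPM.

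Enzymes acting on the tails covered a wide range. Of the 10 genes for restoring the terminal tyrosine or for trimming residues from the tail, 7 were expressed. Over all nuclear protein-coding genes 12754 of 22015 were. Agtpbp1, which trims glutamates from tubulin tails, had 139 TPM in replicate 2 and 180 TPM in replicate 1. Ttl, the ligase that restores the terminal tyrosine, averaged 30.8 TPM, and Vash1, which removes it, averaged 17.5 TPM. Agbl2, another carboxypeptidase, was lowest at 0.225 TPM. Of the 15 genes for adding glutamate or glycine, 10 were expressed, beside the same background. Ttll7, a glutamylase acting on beta tubulin, led with 76.8 TPM in replicate 2 and 89.4 TPM in replicate 1. Nicn1 and Lrrc49, which belong to the polyglutamylase complex, averaged 54.4 and 37.3 TPM, and Ttll6 was lowest at 0.035 TPM, from 3 counts in replicate 2 and 2 in replicate 1.

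The remaining lists were at moderate levels. The acetylation genes were Sirt2, a deacetylase known from oligodendrocytes, at 75.4 TPM on average, Atat1, the acetyltransferase of alpha tubulin, at 21.6 TPM, and Hdac6, another deacetylase, at 19.9 TPM. All 8 genes of the gamma tubulin ring were expressed, led by Mzt1 at 27.9 TPM, Mzt2 at 25.3 TPM and Tubgcp4 at 17.2 TPM, with Nedd1 lowest at 1.57 TPM. Of 8 severing genes 5 were expressed, led by the katanin-like Katnal1 at 32.2 TPM and spastin (Spast) at 23.8 TPM, with Fignl1 lowest at 0.235 TPM. Beside these counts, 12754 of 22015 nuclear protein-coding genes were expressed. None of the genes of these lists that averaged 100 counts or more was 2-fold apart between the mice, beside 0.745% of all genes tested, so a count of 0 is near that background.

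**Figure D5:**
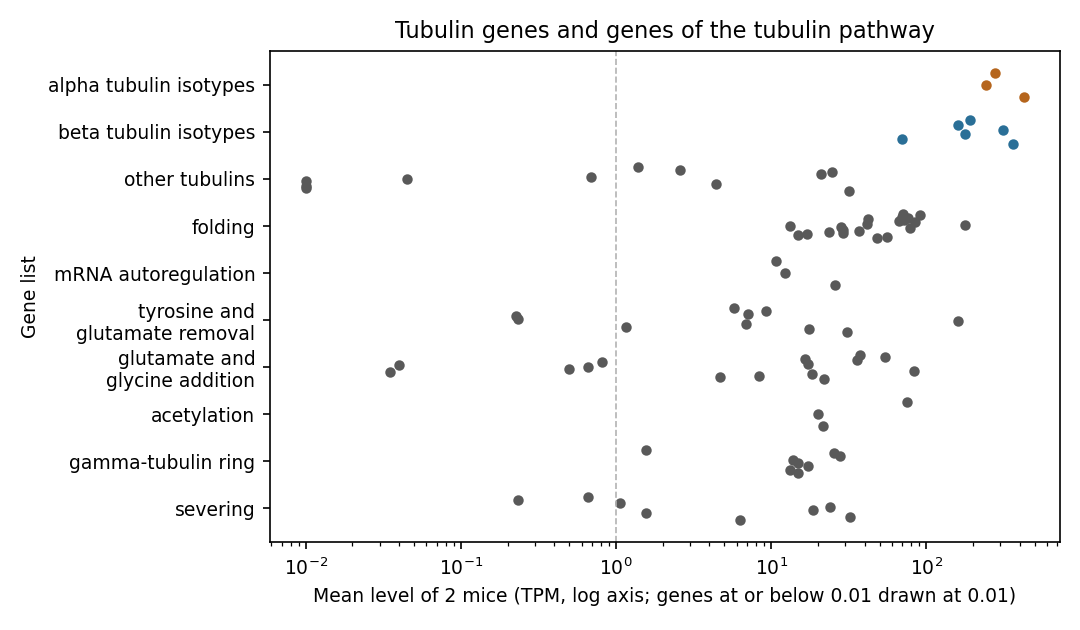
Mean level of 2 mice in TPM (horizontal log axis) of every gene in 10 lists, 1 point per gene, with the alpha and beta tubulin isotypes in the upper 2 lines, a dashed line at 1 TPM, and genes at or below 0.01 TPM drawn at 0.01. The 9 isotypes lie between 70.1 and 425 TPM, and Pfdn5 (176 TPM) and Agtpbp1 (159 TPM) are the highest genes of the other lists.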

How the data were processed

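Total RNA from the left cerebral cortex of 2 mice gave 1 library each, stranded and reduced in ribosomal RNA, with ERCC spike-ins added, per the labels. Per the labels, reads were placed on mm10, and the deposited notes name GENCODE M21 as annotation. No source used here states the aligner, the strand setting or the tool versions. Per the file headers, each library has a gene table and a first transcript table of expected counts, TPM, FPKM and posterior SDs computed by the authors. The percent of its gene's abundance taken by each transcript was deposited in the first transcript table. The second transcript table holds estimated counts and TPM from another quantifier, per the file headers.

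A read that fits several genes is divided among them, so near-identical genes carry uncertain values. TPM is scaled over all rows, so abundant 7SL RNA lowers every other gene. Counts were rounded to whole numbers for TMM scaling (edgeR 4.0.16 in R 4.3.3, genes averaging 10 counts or more), and ratios are log2 CPM with a prior count of 2. The 95% intervals are exact (Clopper-Pearson) for the part of each gene's reads found in replicate 2. DESeq2 1.42.0 size factors, library totals, spike-ins and the second table were alternatives. The ratio step was tested on simulated data. Sequences, windows and identities were taken from GENCODE M21 transcripts, with identity over coding bases and not over protein. The coding sequence of Tuba4a is that of Tuba4a-202, since Tuba4a-201 is annotated without a start codon. Named genes were the 9 members, all other tubulin genes, the 3 highest and the lowest of each list, tubulin pseudogenes of at least 1 TPM, and transcripts whose share differed by 20 points or more between quantifiers. Tubb2b-202, Tubb2a-ps2 and the pseudogenes without a tubulin name were added after their values were seen. Members and lists were chosen with earlier results of these data known. A few items that this choice would name, and some sequences, are not reported here.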

Additional observations from a re-analysis of the deposited data

How the results depend on the processing

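The 9 genes kept their places as abundant tubulins, but several values moved with the processing. The alpha to beta ratio of 0.768 was 0.922 in the second transcript table, 0.722 on expected counts, 0.740 over the 9 members alone and 0.938 with pseudogenes added, and 0.767 to 0.769 with 1 library left out. The summed log2 ratio of the 9 genes, 0.27 under TMM, was 0.23 by library totals, 0.056 on TPM as deposited, 0.33 in the second table, 0.29 with no filter before TMM and 0.20 over the 4 genes without shared windows. Under spike-in scaling it turned to -0.17, and the single genes turned to -0.061 (Tuba1a), -0.20 (Tuba1b), -0.27 (Tuba4a), -0.035 (Tubb2a), -0.072 (Tubb2b), -0.10 (Tubb3), -0.32 (Tubb4a), -0.27 (Tubb4b) and -0.19 (Tubb5). On TPM as deposited Tubb4a turned to -0.10, Tuba4a to -0.058 and Tubb4b to -0.045. The 94 genes 2-fold apart became 306 under spike-in scaling and 769 with a minimum mean count of 10, and none of the 9 was 2-fold apart under any scaling run. The choices of pseudogenes and of genes without shared windows were added after seeing the data. Of 212 alternatives 109 left the value within its spread, 90 moved it and 13 turned its sign. The 90 include the level of each of the 9 genes in FPKM and in TPM scaled to nuclear protein-coding genes. These are changes of unit, as for Tuba1a, whose mean of 425 TPM became 289 in FPKM and 964 in the scaled TPM. All 13 turned signs came from spike-in scaling or TPM as deposited, which rescale whole libraries. Leaving out 1 of 2 libraries moves a mean by less than its SD, so those alternatives lie within the spread by construction. The tally is thus not a measure of how firm the results are. The cause of the other moves was not tested. No paired analysis of conditions was possible because both libraries belong to 1 group. With 2 mice, an SD rests on 1 difference, and the levels of Tuba1a and Tuba1b are also limited by reads shared between them and their pseudogenes.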
